A study of Mus musculus with 12 samples.

Results

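The 9 genes described here encode the cytokines IL-17A, IL-17F and IL-22 and 6 regulators and receptors of the cells that make them: Il17a, Il17f, Il22, Rora, Maf, Batf, Il23r, Il1r1 and Ccr6. They were taken by name from a table of 55401 genes counted in 12 libraries, and all 9 were among the 22107 genes that passed the filter on low counts. The series examined which genes differ in intrahepatic double negative T cells, which carry CD3 but neither CD4 nor CD8, when arachidonic acid (AA), the precursor of prostaglandins and leukotrienes, is added. Live CD45+ CD3+ cells that lacked NK1.1, CD4 and CD8 were sorted by TCRαβ or TCRγδ from the liver of adult C57BL/6 mice before the stimulation with AA. The 4 groups of 3 libraries each were TCRαβ cells and TCRγδ cells, each without AA (called AA-free here) and with AA. The protocol, worded the same for all 12 libraries, gives 48 h of AA stimulation and does not say how AA-free cells were kept over that time. The labels do not say whether libraries of 1 group came from separate animals or cultures, so the spread behind each p-value is that between libraries and may be technical.

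Type 17 lymphocytes respond to IL-23 and IL-1 and secrete IL-17A, IL-17F and IL-22. IL-17A and IL-17F bind a shared receptor on epithelial, stromal and liver cells and raise chemokines that draw neutrophils, whereas IL-22 acts on hepatocytes and epithelium. In liver, unconventional T cells, γδ cells among them, are a known source of IL-17A and can release it soon after stimulation.

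The libraries held 6036487 to 30548253 counts, and those of αβ with AA reached no more than 17021782. The CD3 chain genes Cd3d, Cd3e and Cd3g made up 0.0208%, 0.0243% and 0.0569% of counts in the AA-free αβ libraries but 0.0155%, 0.00407% and 0.0233% in αβ with AA. Their share was 0.0683%, 0.0622% and 0.0399% in AA-free γδ and 0.0402%, 0.0559% and 0.0304% in γδ with AA. All 8 T cell markers examined had counts in each library, and together they took 0.168% to 0.243% in AA-free αβ, 0.0273% to 0.0932% in αβ with AA, 0.224% to 0.280% in AA-free γδ and 0.201% to 0.336% in γδ with AA. For AA in αβ all 8 had a log2 fold change under 0 with TMM (5 of 8 with CD3 counts as the scale), 6 of them at an unadjusted p under 0.05, and none was called. Trdc, the constant region of the δ chain, went against the labels of both AA-free replicate 3 libraries: it stood at 0.0178, 0.0243 and 0.354 per CD3 count in libraries labelled αβ and at 0.361, 0.427 and 0.0292 in those labelled γδ. With AA it stood at 0.358, 0.131 and 0.227 in αβ and at 0.518, 0.352 and 0.230 in γδ. The groups with AA thus overlapped, and Trdc did not set their labels apart. Markers of other cells were present although CD3+ cells were sorted. The 14 macrophage and monocyte markers took 0.178% to 2.36% in AA-free αβ, 0.634% to 1.60% in αβ with AA, 0.381% to 3.60% in AA-free γδ and 0.851% to 2.24% in γδ with AA. Of these, the Kupffer cell marker Clec4f was at 0 in every AA-free αβ library, and C1qc, Cd5l, Vsig4 and Timd4 in every γδ library with AA. The 10 B cell and plasma cell markers took 0.301% to 1.59% in AA-free αβ, 0.817% to 2.09% in αβ with AA, 0.206% to 1.19% in AA-free γδ and 0.190% to 0.431% in γδ with AA. The 9 mast cell and basophil markers took 0.0405% to 0.363% in AA-free αβ, 0.0665% to 0.726% in αβ with AA, 0.0137% to 0.220% in AA-free γδ and 0.0246% to 0.0581% in γδ with AA. Of these, Mcpt4 was at 0 in every library of AA-free αβ, AA-free γδ and γδ with AA, and Tpsb2 in every AA-free γδ library. The highest share, 0.726% in αβ with AA replicate 1, came with Mcpt4, Tpsb2 and Cma1 all at 0. The 10 markers of type 3 innate lymphoid cells, several of which T cells share, took 0.0880% to 0.126% in AA-free αβ, 0.0824% to 0.0904% in αβ with AA, 0.113% to 0.155% in AA-free γδ and 0.144% to 0.162% in γδ with AA. The 10 neutrophil markers took 0.0241% to 0.331% in AA-free αβ, 0.0507% to 0.153% in αβ with AA, 0.0344% to 0.171% in AA-free γδ and 0.172% to 0.353% in γδ with AA, and the 10 dendritic cell markers 0.00963% to 0.0254% in AA-free αβ, 0.0103% to 0.0130% in αβ with AA, 0.0138% to 0.0244% in AA-free γδ and 0.0245% to 0.0318% in γδ with AA. In γδ neither of these 2 lists overlapped between libraries with and without AA. Both were higher with AA, by narrow margins between the nearest libraries. In γδ 9 of 10 neutrophil and 7 of 10 dendritic cell markers lay over 0, with median log2 fold changes of 2.02 and 1.54 (9 to 10 and 7 to 8 over 0 under the other scalings). None of them was called by edgeR. At an unadjusted p under 0.05, 1 neutrophil and 3 dendritic cell markers were higher and 0 of either lower, against 3.38% of all genes higher and 3.85% lower. The dendritic cell marker Clec9a was at 0 in every γδ library with AA. Over all 12 libraries the lists for ILC2, NK cells, endothelial and stellate cells, hepatocytes, and CD4, CD8 and regulatory T cells reached at most 0.0155%, 0.00743%, 0.0182%, 0.00345% and 0.0221%. In bulk RNA, fewer cells of a type and less RNA per cell cannot be told apart, and the part of other cells in the values below was not tested.

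Il17a and Il17f are neighbours on chromosome 1, on opposite strands, with 0 annotated genes between them. The stretches before the start of Il17a, Il17f, Il23r and Ccr6 are shown because these 4 of the 8 members with a promoter in the RefSeq table (GRCm38.p6) hold, within 250 bases, the letters AGGTCA, the core bound by ROR family receptors such as RORα. The motif was searched on both strands, as was TGANTCA, the AP-1 motif that BATF binds together with JUN proteins. Capitals mark matches to either motif, and each sequence runs 5′ to 3′ on the strand of its gene.
Il17a (chr1:20730655-20730904, + strand): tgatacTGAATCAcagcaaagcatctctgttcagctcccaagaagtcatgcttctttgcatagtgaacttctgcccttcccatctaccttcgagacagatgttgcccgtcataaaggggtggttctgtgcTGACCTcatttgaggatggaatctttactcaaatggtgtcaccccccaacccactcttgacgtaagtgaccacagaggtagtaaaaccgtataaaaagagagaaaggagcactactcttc
Il17f (chr1:20784271-20784520, - strand): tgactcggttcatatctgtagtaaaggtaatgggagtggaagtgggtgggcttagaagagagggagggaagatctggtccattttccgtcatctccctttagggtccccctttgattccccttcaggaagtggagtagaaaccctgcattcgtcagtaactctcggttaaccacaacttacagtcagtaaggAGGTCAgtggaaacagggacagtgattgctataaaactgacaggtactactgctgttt
Il23r (chr6:67491856-67492105, - strand): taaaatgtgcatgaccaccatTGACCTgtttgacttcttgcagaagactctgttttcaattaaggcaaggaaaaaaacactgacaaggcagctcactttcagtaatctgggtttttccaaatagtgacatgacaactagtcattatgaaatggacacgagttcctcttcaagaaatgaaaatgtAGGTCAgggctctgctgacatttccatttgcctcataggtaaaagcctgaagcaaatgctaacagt
Ccr6 (chr17:8235793-8236042, + strand): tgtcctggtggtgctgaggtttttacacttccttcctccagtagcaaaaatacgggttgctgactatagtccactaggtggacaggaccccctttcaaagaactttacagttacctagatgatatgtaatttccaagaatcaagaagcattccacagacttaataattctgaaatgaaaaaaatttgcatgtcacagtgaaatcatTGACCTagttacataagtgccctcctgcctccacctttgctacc
Among all 32851 promoters of the table, 14.0% held AGGTCA and 6.75% held TGANTCA in a window of the same length. In Il17a the ROR core lay 120 bases before the start of the gene, on the reverse strand, and the AP-1 motif, held by no other member, 244 bases before it. The ROR core lay 58 bases before the start in Il17f, 229 and 66 bases before it in Il23r, and 44 bases before it in Ccr6. In Il17a it overlapped a match to TGCTGA, the half-site of MAF factors, which 4 members (Il17a, Il23r, Il1r1 and Ccr6) and 16.1% of all promoters held on either strand. The STAT motif TTCNNNGAA, searched on both strands, was found in Ccr6 alone among the members and in 7.02% of all promoters. Ccr6 and Il1r1 each had a further promoter in the table, not shown, without a match to any of these motifs. A member was counted if any of its promoters matched, whereas the shares of all promoters are per promoter. A match describes letters, not a bound site.

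No member passed the test in any of the 5 comparisons, which are AA in each population, the difference between these effects, and γδ against αβ with and without AA. By edgeR's quasi-likelihood test at a Benjamini-Hochberg adjusted p under 0.05, the called share of all genes was 0.0136% for AA in αβ and 0.00905% for AA in γδ. It was 0% for the difference, 0% for AA-free γδ against αβ and 0.0226% for γδ against αβ with AA. At an unadjusted p under 0.05 the members numbered 2, 1, 3, 0 and 3 of 9 in that order, against 10.2%, 7.24%, 9.58%, 3.30% and 18.5% of all genes. DESeq2 called 0, 0, 0, 0 and 1 of the members, and limma's voom 0, 0, 0, 0 and 2. For γδ against αβ with AA, where these calls fell, DESeq2 called 1824 and voom 712 of all 22107 genes. In sign, 7 of 9 members lay under 0 for AA in αβ (46.7% of all genes did, and 53.2% lay over 0), of which Batf and Il1r1 turned with DESeq2's size factors, Il1r1 with library size, and Rora, Batf, Il1r1 and Ccr6 with CD3 counts as the scale. In γδ 7 of 9 lay over 0 (44.8% over and 52.7% under), and Il23r joined them with DESeq2's size factors and with CD3 counts. For the difference 7 of 9 lay over 0 (48.0% over and 52.0% under), and for AA-free γδ against αβ 5 did (45.5% over and 53.9% under). With AA all 9 were higher in γδ than in αβ (45.0% of all genes over and 54.9% under), but 6 of them (Il17a, Il17f, Maf, Batf, Il1r1 and Ccr6) turned sign when summed CD3 counts set the scale. Levels below are CPM, which are counts brought to a common library total, with the TMM factor that corrects for RNA composition, and each gene's libraries are given in the order of replicates 1, 2 and 3.

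**Figure D1:**
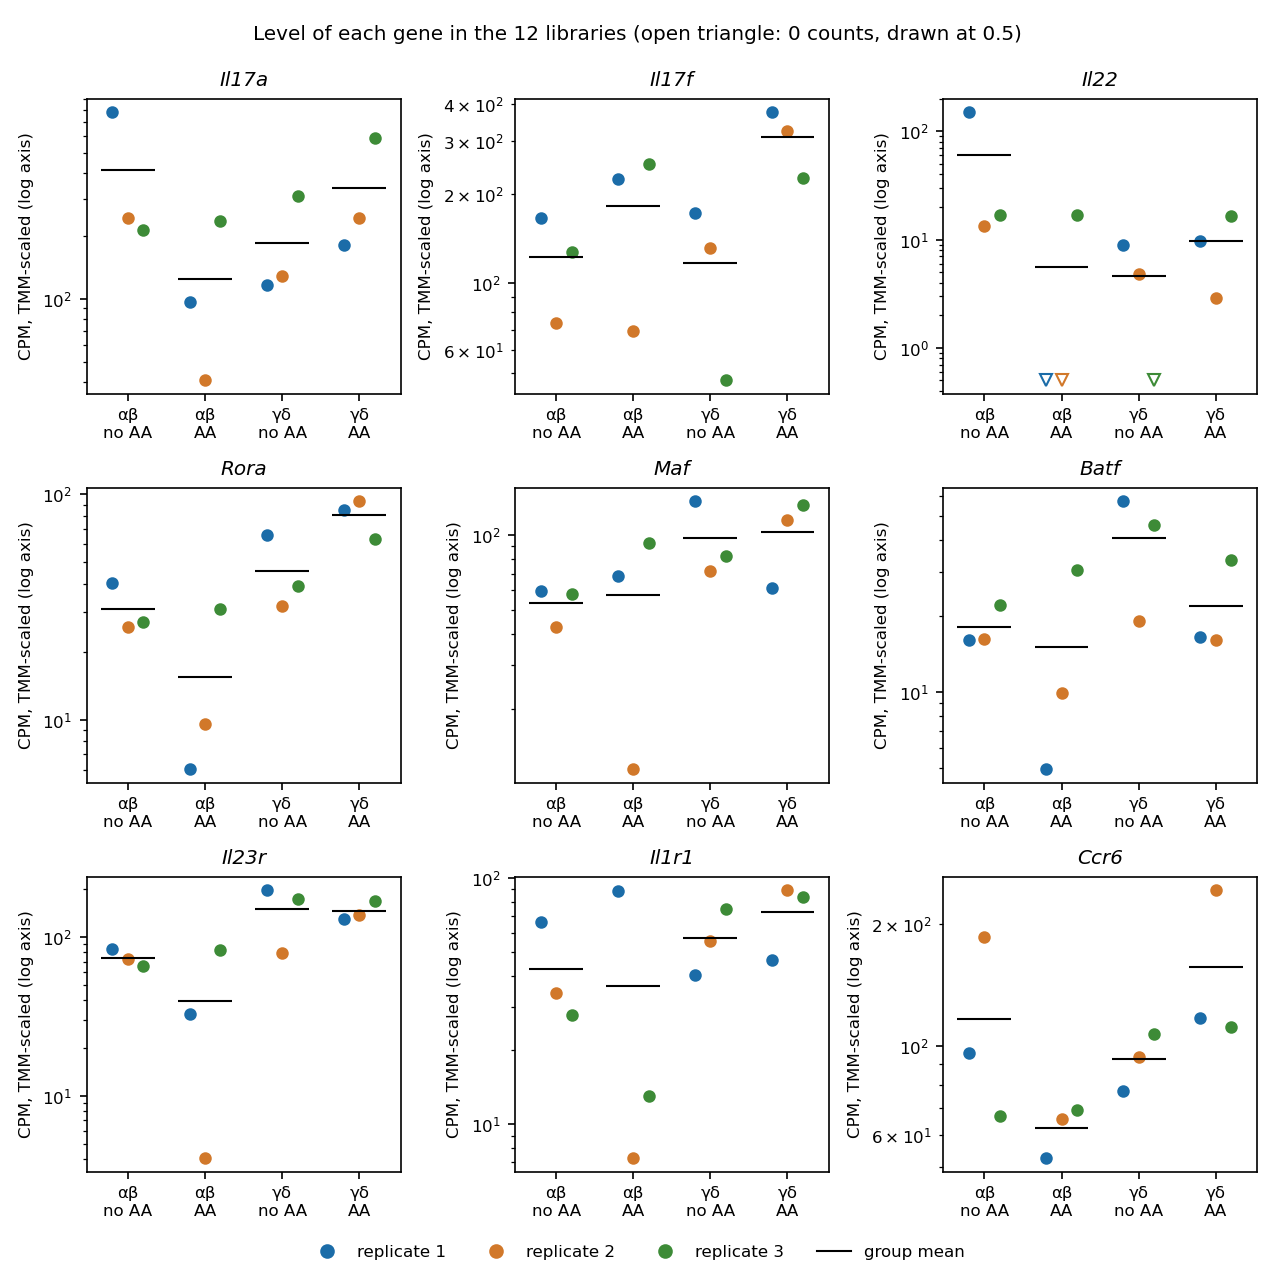
Level of each of the 9 genes in CPM (TMM-scaled, log axis) in the 12 libraries, by group, with points coloured by replicate and a line at the group mean of 3 libraries. In αβ with AA, replicate 2 is the lowest of its group for Il17a, Il17f, Maf, Il23r and Il1r1, and open triangles mark the 3 libraries with 0 counts of Il22.

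Il17a, the founding cytokine of the family, had its highest library in AA-free αβ and its lowest in αβ with AA. Its levels were 782, 244 and 212 CPM in AA-free αβ and 96.1, 40.7 and 236 CPM with AA. The groups overlapped, because replicate 3 with AA lay above the lowest AA-free library. The means were 413 ± 320.1 CPM without and 124 ± 101 CPM with AA (SD, n = 3 each), a log2 fold change of -1.73 ± 0.68 (SE) with an unadjusted p of 0.0236 and an adjusted p of 0.438 by edgeR. Without AA-free αβ replicate 1, the highest of all 12 libraries, the change was -0.81 (adjusted p = 0.580 by edgeR). The γδ libraries had 117, 128 and 311 CPM without AA and 181, 243 and 589 CPM with AA. Replicate 3 was the highest in both γδ groups, which overlapped through AA-free replicate 3, 1 of the 2 libraries whose Trdc went against their labels. The γδ means were 186 ± 109 and 338 ± 220.0 CPM (SD, n = 3 each), a log2 fold change of 0.86 ± 0.67 (adjusted p = 0.795 by edgeR). Without both AA-free replicate 3 libraries the γδ change was 1.42 (adjusted p = 0.873 by edgeR), with no overlap, and the αβ change -2.15 (adjusted p = 0.696), also with no overlap. Leaving out single libraries gave γδ changes from 0.22, without γδ with AA replicate 3, to 1.42, without AA-free γδ replicate 3. The γδ effect exceeded the αβ effect by 2.60 ± 0.95 on the log2 scale, with an unadjusted p of 0.0165 and an adjusted p of 0.451 by edgeR. With no filter on low counts edgeR called Il17a for AA in αβ (adjusted p = 0.000273) and for this difference (adjusted p = 8.3e-05), and over the other alternatives to the filter, scaling and tool neither was called.

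Il17f, whose product also pairs with IL-17A in a heterodimer, stood at 165, 73.9 and 128 CPM in AA-free αβ and at 223, 69.3 and 252 CPM with AA. Replicate 2 was the lowest library in each of these groups, which overlapped, and the log2 fold change was 0.57 ± 0.51 (adjusted p = 0.723 by edgeR). In γδ, Il17f had 172, 131 and 47.3 CPM without AA and 375, 325 and 226 CPM with it. Every γδ library with AA lay above every AA-free one. Il17f and Ccr6 were the 2 of 9 members that did not overlap in γδ, both higher with AA, as were 4.86% of all genes, with 7.08% lower and 11.9% in either direction. The Il17f means were 117 ± 63.6 and 309 ± 75.7 CPM (SD, n = 3 each), a log2 fold change of 1.40 ± 0.52 with an unadjusted p of 0.0171 and an adjusted p of 0.635 by edgeR. Without both AA-free replicate 3 libraries, which Trdc set apart, the change was 0.98 (adjusted p = 0.873 by edgeR). The neutrophil and dendritic cell markers, given above, were also higher in γδ with AA, and their part in Il17f was not tested. Neither list overlapped, but the nearest libraries differed little (0.171% without against 0.172% with AA, and 0.0244% against 0.0245%). Without the 2 AA-free replicate 3 libraries Il17a, Il17f and Ccr6 were the 3 of 9 members higher with AA without overlap in γδ, against 6.75% of all genes, and none was lower, against 11.4%.

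The share of Il17f in the Il17a and Il17f counts of a library does not depend on how libraries are scaled. It was chosen after the values of both genes had been seen and has no test. In AA-free αβ this share was 17.5%, 23.3% and 37.6%, and with AA it was 69.9%, 63.0% and 51.7%. These groups did not overlap, with means of 26.1% ± 10.4 and 61.5% ± 9.22 (SD, n = 3 each). Exact 95% binomial (Clopper-Pearson) intervals, which cover counting error only, ran from 36.6% to 38.6% for the highest AA-free library and from 49.7% to 53.6% for the lowest with AA. In γδ the share was 59.5%, 50.6% and 13.2% without AA and 67.4%, 57.2% and 27.7% with AA. Here the groups overlapped, with means of 41.1% ± 24.6 and 50.8% ± 20.6 (SD, n = 3 each), and replicate 3 was the lowest in both. AA-free γδ replicate 3, the library with the lowest Trdc per CD3 count of those labelled γδ, had a share below every library labelled αβ. AA-free αβ replicate 3, with the highest Trdc per CD3 count among AA-free libraries labelled αβ, had the highest share of its group. With AA, Trdc per CD3 count was 0.358, 0.131 and 0.227 in αβ and 0.518, 0.352 and 0.230 in γδ. Without the replicate 3 libraries, the AA-free means were 20.4% ± 4.11 in αβ and 55.1% ± 6.34 in γδ (SD, n = 2 each). The part of the γδ content of a library in this share was not tested.

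**Figure D2:**
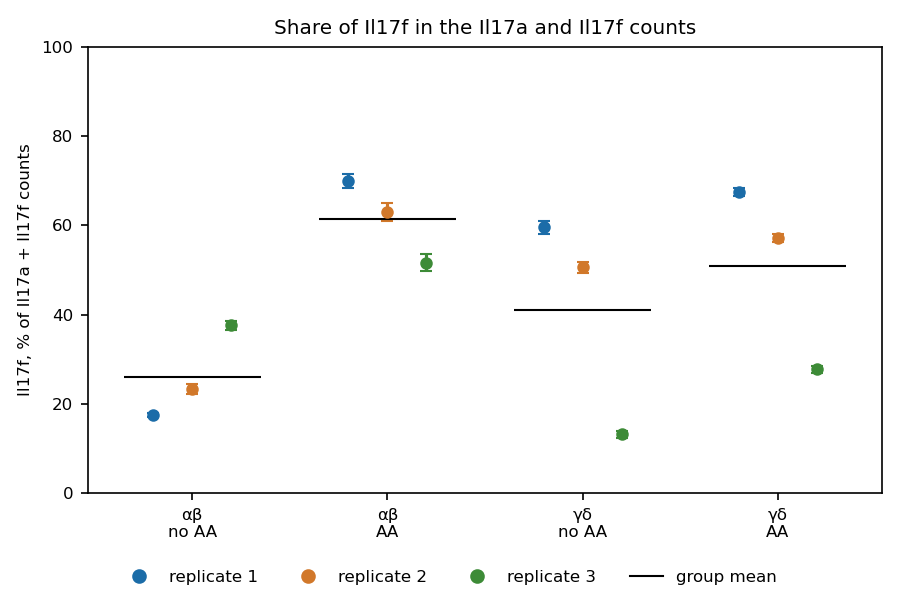
Il17f counts as a percentage of the Il17a and Il17f counts in each of the 12 libraries, by group, with exact 95% binomial intervals as bars and a line at the mean of 3 libraries. The αβ libraries with AA lie at 51.7% to 69.9%, above the AA-free ones at 17.5% to 37.6%, while the γδ groups overlap.

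Il22, a cytokine of the IL-10 family that protects epithelium, was high in a single library. It had 3246 counts in AA-free αβ replicate 1 and 263 and 475 in replicates 2 and 3, which is 151, 13.3 and 16.9 CPM. In αβ with AA the counts were 0, 0 and 92, and the last is 16.7 CPM. A count of 0 at these depths allows up to 0.334 and 0.176 CPM (3 counts, counting error only). The γδ libraries had 8.88, 4.82 and 0 CPM without AA and 9.61, 2.90 and 16.5 CPM with AA, all at or under the level of αβ replicate 3. The means were 60.2 ± 78.2 and 5.57 ± 9.65 CPM in αβ and 4.57 ± 4.45 and 9.65 ± 6.78 CPM in γδ, without and with AA (SD, n = 3 each). The log2 fold change with AA was -3.46 ± 2.02 in αβ and 1.08 ± 1.85 in γδ (adjusted p of 0.581 and 0.981 by edgeR). Without AA-free αβ replicate 1 the αβ value was -1.38 (adjusted p = 0.816 by edgeR). Iltifb, a near-identical copy of Il22, had 0 to 38 counts, so the split of reads between the 2 genes is uncertain.

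Among the transcription factors, Rora encodes the nuclear receptor RORα, which takes part in the type 17 programme, and it differed most between populations with AA. Its levels were 40.3, 25.7 and 27.1 CPM in AA-free αβ and 6.01, 9.56 and 30.9 CPM with AA. The γδ libraries had 66.1, 31.9 and 39.0 CPM without AA and 84.9, 93.2 and 63.5 CPM with AA. Replicates 1 and 2 of αβ with AA were the lowest of the 12, and with AA every γδ library lay above every αβ library. The means with AA were 80.5 ± 15.3 CPM in γδ and 15.5 ± 13.5 CPM in αβ (SD, n = 3 each), a log2 difference of 2.39 ± 0.59 with an unadjusted p of 0.00123 and an adjusted p of 0.162 by edgeR. DESeq2 called this difference (2.08, adjusted p = 0.00822) among 1824 genes, as did voom (2.91, adjusted p = 0.0361) among 712. So did edgeR with no filter on low counts (2.48, adjusted p = 0.00853) and without αβ with AA replicate 3 (3.22, adjusted p = 0.0407). Over 11 alternatives the adjusted p ranged from 0.00822 to 0.688, the highest with CD3 counts as the scale, on which the difference was 0.44. The log2 fold change of Rora with AA was -1.01 ± 0.57 in αβ and 0.82 ± 0.56 in γδ (adjusted p of 0.565 and 0.740 by edgeR). The difference of these effects, 1.83 ± 0.80, had an unadjusted p of 0.0383 and an adjusted p of 0.499 by edgeR. The antisense gene Gm15511 overlaps exons of Rora and had 0 to 99 counts, and whether counting used strand is not given in the sources used here.

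Maf, which encodes c-MAF, a factor of IL-17 and IL-10 producing T cells, stood at 59.7, 42.8 and 57.8 CPM in AA-free αβ and at 68.3, 11.5 and 93.0 CPM with AA. The γδ levels were 137, 71.7 and 82.6 CPM without AA and 61.3, 115 and 132 CPM with AA. Every AA-free γδ library lay above every AA-free αβ library, and all other pairs of groups compared overlapped. The AA effects were small beside their error, at 0.10 ± 0.57 in αβ and 0.083 ± 0.57 in γδ on the log2 scale (adjusted p of 0.965 and 1 by edgeR). The γδ to αβ log2 difference was 0.86 ± 0.57 without AA and 0.84 ± 0.57 with AA (adjusted p of 1 and 0.475 by edgeR).

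Batf, an AP-1 factor needed for type 17 differentiation, stood at 16.0, 16.2 and 22.2 CPM in AA-free αβ and at 4.92, 9.87 and 30.3 CPM with AA. The γδ values were 57.2, 19.1 and 45.8 CPM without AA and 16.6, 16.0 and 33.3 CPM with AA. All these groups overlapped, and replicate 3 was the highest in each group except AA-free γδ. The log2 fold change with AA was -0.27 ± 0.69 in αβ and -0.89 ± 0.69 in γδ (adjusted p of 0.914 and 0.800 by edgeR). Without AA, the γδ to αβ log2 difference was 1.17 ± 0.70 (adjusted p = 1 by edgeR).

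Among the receptors, Il23r encodes the chain that binds IL-23, which maintains type 17 cells. It stood at 84.0, 72.9 and 65.5 CPM in AA-free αβ and at 32.5, 4.03 and 82.7 CPM with AA. The γδ libraries had 197, 79.4 and 175 CPM without AA and 129, 137 and 169 CPM with AA. With AA, every γδ library lay above every αβ library, and the lowest value came from αβ with AA replicate 2, the library with the lowest share of CD3 counts. The means with AA were 145 ± 21.1 against 39.7 ± 39.8 CPM (SD, n = 3 each), a log2 difference of 1.88 ± 0.70 with an unadjusted p of 0.0182 and an adjusted p of 0.226 by edgeR. Voom called it (3.61, adjusted p = 0.0478) among 712 genes, as did edgeR with no filter on low counts (1.98, adjusted p = 0.00422) among 672. Over 11 alternatives the log2 difference ranged from 0.68 to 3.61 and the adjusted p from 0.00422 to 0.567, and per CD3 count the groups overlapped. The AA effect was -0.91 ± 0.68 in αβ and -0.052 ± 0.68 in γδ on the log2 scale (adjusted p of 0.670 and 1 by edgeR).

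Il1r1, the signalling receptor for IL-1, stood at 66.1, 34.1 and 27.7 CPM in AA-free αβ and at 88.9, 7.27 and 13.1 CPM with AA. The γδ levels were 40.4, 55.7 and 74.7 CPM without AA and 46.4, 89.4 and 83.7 CPM with AA. The αβ libraries with AA held the lowest and the second highest value of the 12, and all groups overlapped. The log2 fold change with AA was -0.23 ± 0.73 in αβ and 0.36 ± 0.73 in γδ (adjusted p of 0.936 and 0.992 by edgeR).

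Ccr6, the receptor for the chemokine CCL20 on type 17 cells and B cells, stood at 96.1, 186 and 66.9 CPM in AA-free αβ and at 52.6, 65.8 and 69.4 CPM with AA. The γδ libraries had 77.4, 93.9 and 107 CPM without AA and 117, 243 and 111 CPM with AA. In γδ the groups did not overlap, and with AA every γδ library lay above every αβ library. The log2 fold change with AA was -0.89 ± 0.41 in αβ and 0.76 ± 0.41 in γδ, with unadjusted p of 0.0477 and 0.0855 and adjusted p of 0.484 and 0.635 by edgeR. Without AA-free αβ replicate 2 the αβ value was -0.31, and without γδ with AA replicate 2 the γδ value was 0.23 (adjusted p of 0.885 and 0.970 by edgeR). The difference of these effects, 1.65 ± 0.58, had an unadjusted p of 0.0130 and an adjusted p of 0.442 by edgeR. With AA the γδ to αβ log2 difference was 1.33 ± 0.42 (unadjusted p = 0.00650, adjusted p = 0.221 by edgeR). The summed B cell and plasma cell markers were 1.05%, 1.59% and 0.301% of counts in AA-free αβ, 0.817%, 2.09% and 0.934% in αβ with AA, 0.206%, 0.386% and 1.19% in AA-free γδ and 0.190%, 0.431% and 0.206% in γδ with AA. Replicate 2 was the highest library for these markers and for Ccr6 in AA-free αβ and in γδ with AA, which are the libraries left out in turn above. The part of B cells in Ccr6, and that of the neutrophils and dendritic cells whose markers were higher in γδ with AA, was not tested.

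Between the populations, Il22 was lower and Maf higher in every γδ library when AA was absent, and the other 7 members overlapped. Over all genes 5.19% were lower, 3.14% higher and 8.34% either without overlap. These groups include both libraries whose Trdc went against their labels, and overlap without them was examined after the data had been seen. Without those, with 2 libraries in each group, Il17a, Il22 and Ccr6 were lower and Maf and Batf higher in every γδ library, against 21.2% of all genes lower and 16.7% higher. With AA, 3 of 9 members (Rora, Il23r and Ccr6) were higher in every γδ library, against 9.10% of all genes higher, 11.3% lower and 20.4% either. Per CD3 count these 3 overlapped, and Trdc per CD3 count overlapped between the groups with AA too. In αβ, 0 of 9 members separated libraries with AA from AA-free ones, against 8.27% of genes higher, 10.9% lower and 19.2% either. Without AA-free replicate 3, Il17a and Ccr6 were lower with AA without overlap, against 15.1% of genes lower and 10.7% higher. The γδ to αβ log2 difference of Il17a was -1.15 ± 0.67 without AA and 1.44 ± 0.68 with AA (adjusted p of 1 and 0.272 by edgeR). The AA-free difference was -2.13 without both replicate 3 libraries (adjusted p = 0.875 by edgeR), and with single libraries left out it ran from -1.81, without γδ replicate 3, to -0.29, without αβ replicate 1. For Il17f the differences without and with AA were -0.066 ± 0.51 and 0.77 ± 0.51 (adjusted p of 1 and 0.460 by edgeR). These comparisons share libraries and are not independent of each other.

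**Figure D3:**
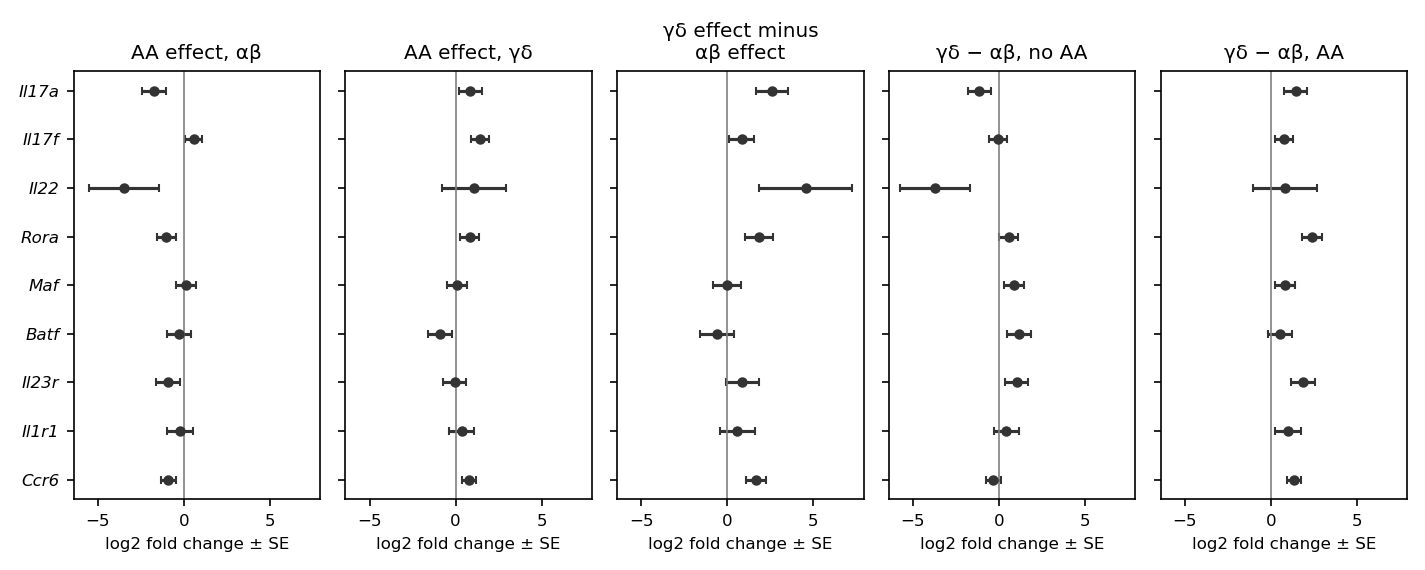
Log2 fold change of the 9 genes in the 5 comparisons, with SE as bars, from 1 fit over 12 libraries; values over 0 mean higher with AA, a larger AA effect in γδ, or higher in γδ, as each panel's title says. Il17a lies at -1.73 for AA in αβ and at 0.86 in γδ, Il22 has the widest bars, and Rora lies at 2.39 for γδ against αβ with AA.

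Because CD3 counts were lowest in αβ with AA, the members were also set against the summed counts of Cd3d, Cd3e and Cd3g of the same library. Il17f stood at 79.2, 28.5 and 20.6 counts per 100 CD3 counts in AA-free αβ and at 176, 188 and 98.7 with AA. In γδ the values were 22.9, 21.4 and 11.7 without AA and 92.3, 59.8 and 71.5 with AA. Il17f was thus higher with AA without overlap in both populations, as were 1.30% of all genes. With CD3 counts as the scale of the model its log2 fold change was 1.85 in αβ and 1.996 in γδ (adjusted p of 0.269 and 0.736 by edgeR). The median of all genes on that scale was 2.11 in αβ, above Il17f, and 0.311 in γδ, below it. Il17a stood at 374, 93.8 and 34.3 counts per 100 CD3 counts in AA-free αβ and at 75.8, 111 and 92.4 with AA, which overlapped. In γδ it stood at 15.6, 20.9 and 77.2 and 44.5, 44.7 and 186, without and with AA, which overlapped too. Per CD3 count, 2 of 9 members (Il17f and Maf) were higher with AA without overlap in αβ, against 16.4% of all genes, and 3 (Il17f, Rora and Ccr6) in γδ, against 8.02%. None was lower, against 0.593% and 2.31% of all genes. Between populations Il22 was lower in AA-free γδ, against 9.44% of all genes lower and 0.547% higher, and Il17f was lower in γδ with AA, against 27.5% lower and 0.403% higher. No member was higher in γδ without overlap on this scale, with or without AA.

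**Figure D4:**
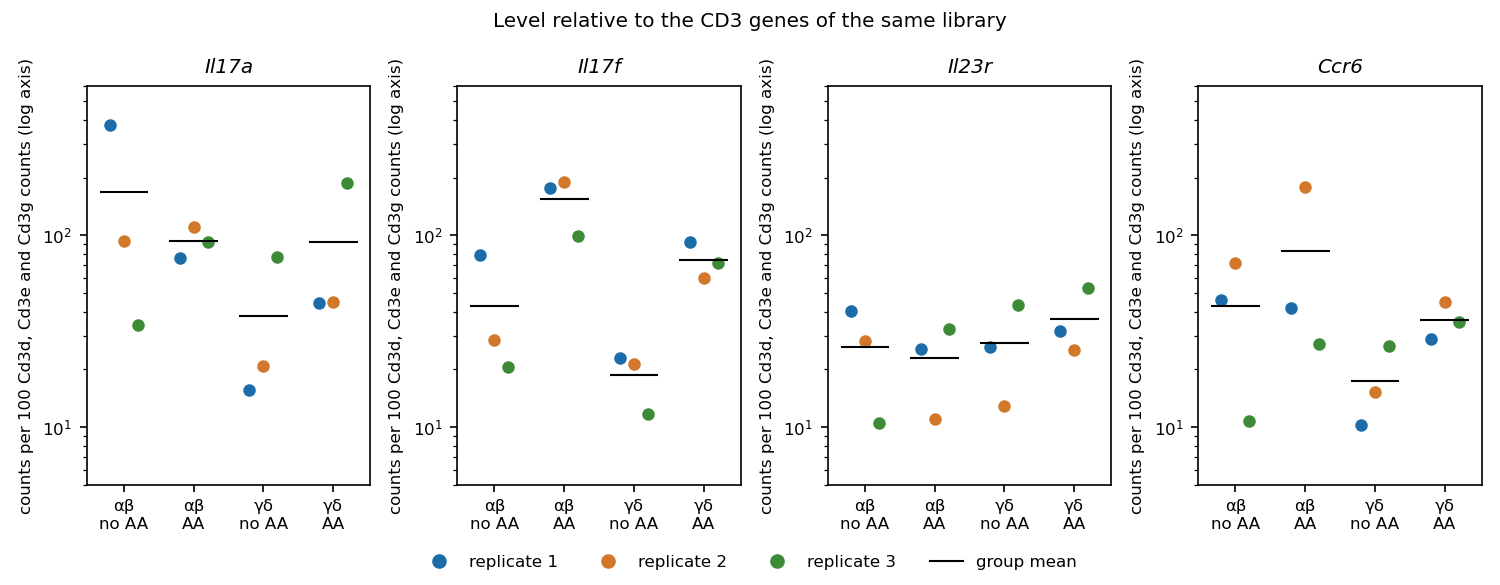
Counts of Il17a, Il17f, Il23r and Ccr6 per 100 counts of Cd3d, Cd3e and Cd3g in each library (log axis), by group, with points coloured by replicate and a line at the mean of 3 libraries. Il17f lies higher with AA in αβ (98.7 to 188 against 20.6 to 79.2) and in γδ (59.8 to 92.3 against 11.7 to 22.9).

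Levels of different genes were compared per kilobase of exon. Il17a had the highest mean in all 4 groups, at 352 ± 273 CPM per kb in AA-free αβ, 106 ± 86.0 in αβ with AA, 159 ± 93.2 in AA-free γδ and 288 ± 188 in γδ with AA (SD, n = 3 each). In both AA-free groups the lowest Il17a library lay above the highest Il17f library on this scale, and with AA the 2 genes overlapped in both populations. Il17f came second except in AA-free γδ, where Il23r had a mean of 60.5 ± 25.1 against 57.8 ± 31.5 CPM per kb and the 2 overlapped. Rora had the lowest mean in all 4 groups, from 1.18 ± 1.03 CPM per kb in αβ with AA to 6.16 ± 1.17 in γδ with AA. In αβ with AA every neighbour in the order from Ccr6 through Il23r, Batf, Maf, Il1r1 and Il22 to Rora overlapped the next. In AA-free γδ the same was true from Il23r through Il17f, Ccr6, Batf, Maf, Il1r1 and Il22 to Rora. The order in γδ with AA broke between Il17f and Ccr6 and between Il23r, at 58.3 ± 8.46 CPM per kb, and Batf, at 15.6 ± 6.98, where the libraries did not overlap.

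The genes most like each member over the 12 libraries were found by Pearson's r of log2(CPM + 1) among 10111 genes with a mean of at least 5 CPM, as a description without a test, since libraries share depth and cell makeup. Il23r was most like Tnfrsf25 (r = 0.945), the receptor of the cytokine TL1A, then Cxcr6 (0.927), a homing receptor of liver lymphocytes, and Tmem176b (0.926). Il1r1 was most like Il17re (0.948), a receptor chain for IL-17C, then Hnrnpll (0.857) and Camk4 (0.850). For Rora these included Plekhg2 (0.947) and Il18r1 (0.920), a chain of the IL-18 receptor. Il17a was nearest to Ppp1cb (0.912), to Tnfsf11 (0.877), which encodes the cytokine RANKL, and to Osgin2 (0.844), and Il17f to Ston2 (0.911), Rnd3 (0.908) and Rgs1 (0.904). Maf was nearest to Pacs2 (0.916), Atp6v0d2 (0.914) and Cd226 (0.870), and Batf to Eif3h (0.929), Tceal9 (0.927) and Ndufb11 (0.927). Il22 was nearest to Tdg (0.865), Rps6kb1 (0.821) and Phrf1 (0.819), and Ccr6 to Phactr2 (0.825) and Crmp1 (0.818), among others. Among the members r ranged from -0.132 between Il17f and Batf to 0.897 between Maf and Il23r, and it was 0.174 between Il17a and Il17f (n = 12 libraries).

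The wider pathway was described by 7 lists, set beside a median log2 fold change over all genes of 0.118 for AA in αβ and -0.063 in γδ. Under DESeq2's scaling, plain library size and CD3 counts the αβ median moved to 0.505, 0.313 and 2.11, and the γδ median to 0, -0.025 and 0.311. Regulators that oppose type 17 cells held the single called gene of these lists for AA, Tbx21, which encodes T-bet of type 1 immunity and fell in αβ. Tbx21 stood at 30.9, 25.7 and 53.2 CPM in AA-free αβ and at 0, 0 and 0.182 CPM with AA (adjusted p = 0.0377 by edgeR). The groups were far apart, while the T cell markers of the same libraries were also lower, as given above, and their part in this was not tested. DESeq2, voom and edgeR with no filter or without Gm10800 and Gm21738 also called Tbx21, whereas 7 of the 11 alternatives did not, with adjusted p of at least 0.0598 by edgeR, among them every other scaling. Leaving out any AA-free αβ library or αβ with AA replicate 1 gave adjusted p of 0.0756 to 0.165 by edgeR. Of the 14 members tested, 13 lay under 0 in αβ (5 with CD3 counts as the scale), with a median of -1.39 and 7 at an unadjusted p under 0.05, against 6.01% of all genes lower and 4.23% higher at that p. In γδ 6 of 14 lay under 0, with a median of 0.017 and 1 at an unadjusted p under 0.05, against 3.85% lower and 3.38% higher. The smallest p in γδ belonged to Il27ra, the IL-27 receptor, at 244 ± 31.5 CPM without and 144 ± 23.7 with AA, and to Stat5a, which carries IL-2 signals, at 104 ± 59.8 and 219 ± 53.1 CPM (SD, n = 3 each, adjusted p of 0.635 and 0.636 by edgeR).

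Of the other transcription factors of type 17 cells none was called, and their direction in αβ depended on the scaling. In αβ 22 of 24 tested lay under 0, with a median of -0.49 and 4 lower at an unadjusted p under 0.05 (6.01% of all genes were), but 14 did under DESeq2's size factors, 18 under library size and 0 with CD3 counts as the scale. In γδ 19 of 24 lay over 0, with a median of 0.40 and 3 higher at that p (3.38% of all genes), and 19 to 22 did under the other scalings. Hif1a, the hypoxia factor, stood at 337, 283 and 265 CPM in AA-free αβ and at 106, 172 and 165 CPM with AA, with no overlap (adjusted p = 0.395 by edgeR). Id2, an inhibitor of E proteins, was at 319 ± 132 and 155 ± 69.9 CPM (SD, n = 3 each, adjusted p = 0.417 by edgeR). In γδ, the leucine zipper factor Nfil3 stood at 38.9, 71.7 and 65.9 CPM without AA and at 146, 90.8 and 292 CPM with AA, again with no overlap (adjusted p = 0.635 by edgeR). Bhlhe40, a factor of cytokine producing T cells, was at 131 ± 25.1 and 356 ± 175 CPM (SD, n = 3 each, adjusted p = 0.635 by edgeR).

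Of the receptor partners and signalling genes none was called. In αβ 21 of 26 were under 0, with a median of -0.39 and 3 lower at an unadjusted p under 0.05 (6.01% of all genes were), but 13 were under DESeq2's size factors, 17 under library size and 1 with CD3 counts as the scale. In γδ 22 of 26 were over 0, with a median of 0.35 and 2 higher at that p (3.38% of all genes), and 22 to 25 were under the other scalings. Stat4, which carries IL-12 and IL-23 signals, stood at 111, 92.7 and 113 CPM in AA-free αβ and at 52.6, 44.9 and 37.2 CPM with AA, a log2 fold change of -1.23 ± 0.35 (adjusted p = 0.339 by edgeR). In γδ it was at 91.5, 147 and 78.9 CPM without AA and 297, 146 and 184 CPM with AA, a log2 fold change of 0.98 ± 0.34 (adjusted p = 0.635 by edgeR). The Stat4 groups did not overlap in αβ and overlapped in γδ. Il18rap, of the IL-18 receptor, was at 90.7 ± 15.7 and 32.2 ± 27.4 CPM in αβ, and Jak2, a kinase of the IL-23 receptor, at 35.6 ± 18.3 and 127 ± 37.4 CPM in γδ (SD, n = 3 each, adjusted p of 0.415 and 0.635 by edgeR).

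Of the genes known from innate type 17 T cells, 18 of 23 tested lay under 0 in αβ, with a median of -0.85 and 7 lower at an unadjusted p under 0.05, against 6.01% of all genes lower and 4.23% higher. In γδ 14 of 23 lay under 0, with a median of -0.12 and 1 lower at that p, against 3.85% of all genes lower and 3.38% higher. The list also holds Cd27, a marker of γδ cells of the type 1 kind, so it is not of type 17 genes alone. With DESeq2's size factors, library size and CD3 counts as the scale, 14, 17 and 5 lay under 0 in αβ. In γδ these were 13, 13 and 7. None was called. Podnl1 stood at 92.3, 70.2 and 59.4 CPM in AA-free αβ and at 26.5, 7.33 and 40.0 CPM with AA. In γδ it was at 128, 48.2 and 160.1 CPM without AA and at 25.7, 33.5 and 43.3 CPM with AA, so that neither population overlapped. Its log2 fold changes were -1.59 ± 0.57 and -1.71 ± 0.57 (adjusted p of 0.415 and 0.635 by edgeR). Capg, an actin-capping protein gene, was at 1093 ± 149 and 605 ± 251 CPM in αβ, and Ccr2, a chemokine receptor, at 230.4 ± 149 and 69.7 ± 43.4 CPM in γδ (SD, n = 3 each, adjusted p of 0.409 and 0.635 by edgeR).

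The list named inducing cytokines, most of them from myeloid cells, also holds Ebi3 and Il27, the chains of IL-27, and Il1rn, the IL-1 antagonist. Its counts thus mix inducers with opposing factors. In αβ 6 of 10 were over 0, with a median of 0.51, and in γδ 5 of 10, with a median of -0.21. Under the other scalings these were 7 to 10 and 5 to 6. Il6 stood at 11.2, 11.4 and 8.02 CPM in AA-free αβ and at 83.9, 22.5 and 6.00 CPM with AA, and Ebi3, a chain of IL-27, was at 9.73 ± 4.39 and 4.49 ± 5.20 CPM (adjusted p of 0.564 and 0.772 by edgeR). Il1b, a ligand of the Il1r1 receptor, stood at 17.5, 3.56 and 2.41 CPM in AA-free γδ and at 51.3, 47.9 and 122 CPM with AA, with no overlap (adjusted p = 0.635 by edgeR). Il23a, a subunit of IL-23, had 0 counts in every AA-free γδ library and was found with AA in replicate 1 alone, at 3.64 CPM. The macrophage and monocyte markers took 3.60%, 1.17% and 0.381% of counts in AA-free γδ and 1.20%, 0.851% and 2.24% with AA, which overlapped, and 10 of the 11 tested had a log2 fold change under 0 (6 with CD3 counts as the scale). The neutrophil markers took 0.153%, 0.171% and 0.0344% in AA-free γδ and 0.275%, 0.172% and 0.353% with AA, and the dendritic cell markers 0.0244%, 0.0154% and 0.0138% and 0.0318%, 0.0245% and 0.0307%. Neither overlapped, though by narrow margins, both being higher with AA like Il1b, and their part in Il1b was not tested.

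Of the other type 17 cytokines, 5 of 8 tested lay under 0 in αβ, with a median of -0.52, and 5 of 8 over 0 in γδ, with a median of 0.55, against 3 to 5 and 5 to 6 under the other scalings. Cxcl2, a neutrophil chemokine, was at 12.4 ± 9.52 and 88.4 ± 66.4 CPM in αβ without and with AA, and Ltb, of the lymphotoxin complex, at 233 ± 103 and 119.8 ± 38.0 CPM (SD, n = 3 each, adjusted p of 0.409 and 0.419 by edgeR). In γδ, Ccl20, the ligand of CCR6, was at 3.20 ± 3.95 and 9.40 ± 5.25 CPM, and Areg, a repair factor, at 0.0871 ± 0.106 and 1.28 ± 1.85 CPM (SD, n = 3 each, adjusted p of 0.812 and 0.765 by edgeR). Receptors for IL-17 and IL-22 had 5 of 8 tested under 0 in each population, with medians of -0.15 and -0.22, against 1 to 4 in αβ and 3 to 5 in γδ under the other scalings. Il17rd stood at 0.371, 0.908 and 0.143 CPM in AA-free αβ and at 7.92, 2.12 and 3.45 CPM with AA, with no overlap (adjusted p = 0.614 by edgeR). In γδ it was at 4.67 ± 5.78 and 1.40 ± 1.17 CPM (SD, n = 3 each, adjusted p = 0.906 by edgeR). Il22ra2, the soluble IL-22 binding protein, stood at 1.90, 0 and 0 CPM in AA-free αβ and at 0, 0.0531 and 0 CPM with AA. Traf3ip2, the adaptor ACT1 of IL-17 receptors, was at 64.3 ± 8.78 and 47.1 ± 13.1 CPM in γδ (SD, n = 3 each, adjusted p = 0.900 by edgeR).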

How the data were processed

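The authors deposited 1 table of raw counts per gene. Per the labels' protocols, RNA was isolated with Trizol before preparation with an Illumina TruSeq kit. The submitters' processing notes name Bowtie 0.12.2 and build mm8. The sources used here do not give the counting program, annotation or strand setting. Versioned identifiers matched GENCODE M21 for 98.1% of genes, and 55141 of 55401 received a symbol. Exon lengths came from that annotation.

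Genes were kept by filterByExpr (minimum count 10) and scaled by TMM. All 12 libraries entered 1 model with a mean per group in edgeR 4.0.16 (R 4.3.3; glmQLFit, glmQLFTest), adjusted by Benjamini-Hochberg over 22107 genes and called below 0.05. The SE is the absolute log2 fold change over the root of F. The code was tested on simulated counts with each gene's estimated spread, for genes drawn from all those tested. Of 100 genes changed by 1 on the log2 scale, 0 were called in every comparison. Of 100 changed by 3, 22, 20, 0, 20 and 17 were called, in the order of comparisons used above. With a dispersion of 0.05 for every gene, below that of each member, 90, 93, 88, 95 and 92 of those changed by 3 were called. Of those changed by 1, 32, 36, 7, 35 and 33 were. The biological coefficient of variation, edgeR's measure of spread, was 0.400 to 0.641 in the members other than Il22 (1.53), against a common 1.21. Neither setting was that of the members, so their chance of being called was not estimated. A member that was not called may still differ. No 2 replicates agreed within sampling noise (chi-square per degree of freedom 52.4 to 268). Depth and 3 libraries per group limit precision.

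The members and lists were chosen with earlier results of these data known. Named genes were all members, in each pathway list and AA comparison the called genes or else the 2 with the smallest p, and the 3 genes most like each member, of which some are not reported here. Alternatives were other scalings (DESeq2's size factors, library size, CD3 counts), filters, only the groups compared, a replicate block, DESeq2 1.42.0, voom with sample weights (limma 3.58.1), omission of Gm10800 and Gm21738, and libraries left out.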

Additional observations from a re-analysis of the deposited data

How the results depend on the processing

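Without a filter on low counts, 2 members were called for AA in αβ (Il17a and Il22), 2 for the difference of AA effects (Il17a and Il22) and 3 for γδ against αβ with AA (Il17a, Rora and Il23r). For that last comparison DESeq2 called 1 member, voom 2, and leaving out each library in turn gave 0 to 1. In every other combination of comparison and alternative the count of members called was 0. Over all genes the counts were 3, 2, 0, 0 and 5 in the order AA in αβ, AA in γδ, their difference, γδ against αβ without AA and with AA. They became 264, 146, 217, 12 and 672 with no filter, 367, 279, 318, 79 and 1824 by DESeq2, 61, 21, 0, 0 and 712 by voom, and 0 in every comparison with CD3 counts as the scale or with the replicate block. Leaving out 1 library moved them to 0 to 76, 0 to 7, 0 to 48, 0 and 0 to 153.

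The log2 fold changes that turned sign are given here, and the cause was not tested. For AA in αβ, Batf became 0.12 and Il1r1 0.27 with DESeq2's size factors, 0.11 and 0.27 by DESeq2, and 0.070 and 0.18 with the stricter filter of 5 CPM in 3 libraries, and Il1r1 was 0.091 with library size alone. Maf became -0.0058 with no filter, -0.077 with the replicate block and -1.08 by voom. With CD3 counts as the scale, which moves the median of all genes to 2.11, Rora, Batf, Il1r1 and Ccr6 became 0.35, 1.28, 0.95 and 0.95. For AA in γδ, Il23r became 0.027 with size factors and by DESeq2, 0.42 per CD3 count, 0.00063 with the stricter filter, 0.0067 with only the groups compared, 0.082 with the replicate block, 0.14 by voom and 0.023 without both AA-free replicate 3 libraries, where Maf was -0.061. For the difference of effects, Il1r1 became -0.23 per CD3 count and Maf 0.079 with no filter, 0.23 with the replicate block and 1.11 by voom. For γδ against αβ without AA, Rora, Maf and Il1r1 became -0.50, -0.11 and -0.58 per CD3 count, and Il17f and Il1r1 0.28 and -0.13 without both replicate 3 libraries. With AA, Il17a, Il17f, Maf, Batf, Il1r1 and Ccr6 became -0.017, -1.05, -0.64, -1.28, -0.81 and -1.19 per CD3 count. With each library left out, the ranges that crossed 0 were -0.19 to 0.68 for Maf, -1.11 to 0.18 for Batf and -2.03 to 0.40 for Il1r1 (AA in αβ), and -0.15 to 0.43 for Maf and -0.42 to 0.21 for Il23r (AA in γδ). They were -0.55 to 0.33 for Maf, -1.10 to 0.27 for Batf and -0.0011 to 2.43 for Il1r1 (difference of effects), and -0.43 to 0.26 for Il17f and -0.62 to 0.20 for Ccr6 (γδ against αβ without AA).

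Of the member values under alternatives other than leaving out 1 library, 438 kept their direction and side of the threshold, 10 came to pass it and 38 turned sign. Deviations of same-numbered libraries from their group means correlated at -0.182 to 0.137. With 3 libraries per group this cannot decide whether the labels' numbers pair them. The replicate block, given above, called no member. Without the replicate 3 libraries, the AA-free mean of Il17a per 100 CD3 counts went from 167 to 234 in αβ and from 37.9 to 18.2 in γδ, and that of Il17f from 42.8 to 53.8 and from 18.7 to 22.2. The αβ libraries with AA, 6036487 to 17021782 counts deep and correlated at 0.560 to 0.691 with each other, limit every comparison that uses them.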
